A study of Mus musculus with 3 samples.

Results

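The nuclear oxidative phosphorylation (OXPHOS) genes were taken as every gene whose symbol starts with Ndufa, Ndufb, Ndufc, Ndufs, Ndufv, Cox4, Cox5, Cox6, Cox7, Cox8, Uqcr or Atp5, without the assembly factors (Ndufaf) and without Ndufa4l2. This rule gave 81 of the 32285 genes measured. By symbol, 38 belonged to complex I, 8 to complex III, 18 to complex IV and 17 to complex V. Ndufa4 is counted with complex I by its name, although its protein is known as a subunit of complex IV. A level of at least 20 CPM, that is UMIs (unique molecular identifiers, 1 for each captured RNA molecule) scaled to a total of 1000000, was reached over all cells by 75 of the 81. The others were Cox4i2, Cox6a2, Cox6b2, Cox7a1, Cox8c with 1 UMI and Cox7b2 with 0 UMIs, and all 6 are tissue-restricted or little expressed forms of a complex IV subunit.

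Cells of wild-type C57BL/6J mouse thymus cultures were loaded together on 1 droplet lane for single-cell RNA sequencing on culture day 13. The ORFTOC pool (organoid reaggregate fetal thymic organ culture) held thymic epithelial cells (TECs) grown as organoids and then reaggregated with embryonic fibroblasts and with fetal thymus cells from which EpCAM-positive cells had been depleted. The FTOC pool held intact fetal thymic lobes. By the paper, both pools were kept in the same medium with FGF7, and with thiazovivin at the start. The organoids had been grown with both additives before reaggregation. The organoid TECs came from older embryos than the lobes and the depleted thymus cells, per the paper. Epithelial age and time in culture thus differed between the pools. Each pool was 1 sample made of 2 mixed cultures and marked by 1 antibody hashtag. There was thus no replicate, no test between groups was made, and every interval (95%) covers counting error only.

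After filtering, 8392 cells remained, 4261 in the ORFTOC pool (median 8042 UMIs per cell) and 4131 in the FTOC pool (median 4919). Cell classes were rebuilt from marker genes, so each name stands for cells like that type by these markers, and the OXPHOS genes and mitochondrially encoded genes were left out of the genes used for clustering. An unnamed cluster of 53 cells counted with the epithelium was led by T cell genes such as Cd3d and Cd8b1. In 2 small clusters, 65 cells within the CD4+CD8+ double-positive (DP) thymocytes and 26 within the ILC3-like cells, OXPHOS genes took 0.732% and 0.692% of UMIs. Those clusters were also low in ribosomal protein transcripts. Their part in the results was measured by leaving them out, which moved the OXPHOS share of DP cells from 2.78% to 2.83% and that of ILC3-like cells from 2.92% to 2.97%.

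Complexes I, III and IV carry electrons to oxygen and pump protons across the inner mitochondrial membrane, and complex V (ATP synthase) uses the proton gradient to make ATP. Most subunits are encoded in the nucleus, while a small core of complexes I, III, IV and V is encoded in mitochondrial DNA, so each of these complexes is assembled from the products of both genomes. Developing thymocytes pass from a proliferating stage to small resting DP cells, then through selection to mature single-positive (SP) cells, and these stages are known to differ in their metabolic demand.

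Together the 81 genes gave 2194945 UMIs, 3.06% of all UMIs. The share was highest among thymocyte classes in cycling thymocytes, at 3.72% in the ORFTOC pool and 3.58% in the FTOC pool. DP cells had 2.85% and 2.76%, selected cells 3.06% and 2.83%, and mature SP cells 3.08% and 2.92%. In both pools the cycling cells lay above the 3 other classes. Per cell the differences were larger, and the classes also differed in RNA content. The mean was 396 OXPHOS UMIs in a cycling thymocyte, 49.6 in a DP cell, 66.7 in a selected cell and 221 in a mature SP cell.

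Several classes outside the thymocytes had shares near that of mature SP cells (3.02%). Natural killer (NK) or cytotoxic lymphoid cells had 3.13% (3.12 to 3.14), macrophages between 2.98% and 3.02% by their interval, and medullary TECs (mTECs) of the Ccl21a and Krt5 type 2.99%. The intervals of ILC3-like cells (2.92%, 2.90 to 2.93), γδ T cells (2.92%, 2.89 to 2.95) and selected thymocytes (2.92%, 2.88 to 2.96) overlapped, so their order was not resolved. Lower shares were measured in airway-like epithelial cells (2.72%), ILC2-like cells (2.50%) and mesenchymal cells (2.36%). ILC2-like cells also had the most UMIs from 9 stress and dissociation genes, 21681 CPM, against 96.8 to 9325 in the other named classes, and the part of this in their OXPHOS share was not tested.

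Among epithelial cells, cortical TECs (cTECs) had 3.29% and Aire+ mTECs 3.53%. The highest shares of all belonged to 2 small clusters. In 26 tuft-like cells, chemosensory cells marked by Trpm5 and Gnat3, OXPHOS genes took 5.14% of UMIs, 4.84% in the 21 cells of the ORFTOC pool and 6.79% in the 5 cells of the FTOC pool. In an unnamed cluster of 43 cells led by Foxi1 and Ascl3, genes known from ionocytes, the share was 4.78% in the ORFTOC pool and 5.17% in the FTOC pool. The order of some classes changed with the denominator. Of the UMIs that were neither ribosomal nor mitochondrially encoded, OXPHOS genes took 4.83% in cycling thymocytes, 4.60% in those called mature SP, 3.63% in selected cells and 3.41% in DP cells, which is the same order as among all UMIs. Aire+ mTECs (4.36%) and cTECs (3.95%) then lay below mature SP cells, whereas both lay above them among all UMIs. NK or cytotoxic lymphoid cells (4.56%, 4.539 to 4.574) also lay above mature SP cells among all UMIs. Here their interval overlapped that of mature SP cells (4.571 to 4.624), so the order was not resolved. They had 4.67% against 4.64% in the ORFTOC pool, and 4.46% against 4.52% in the FTOC pool. In mature SP cells ribosomal protein genes took 32.0% of all UMIs, against 14.9% in DP cells.

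**Figure D1:**
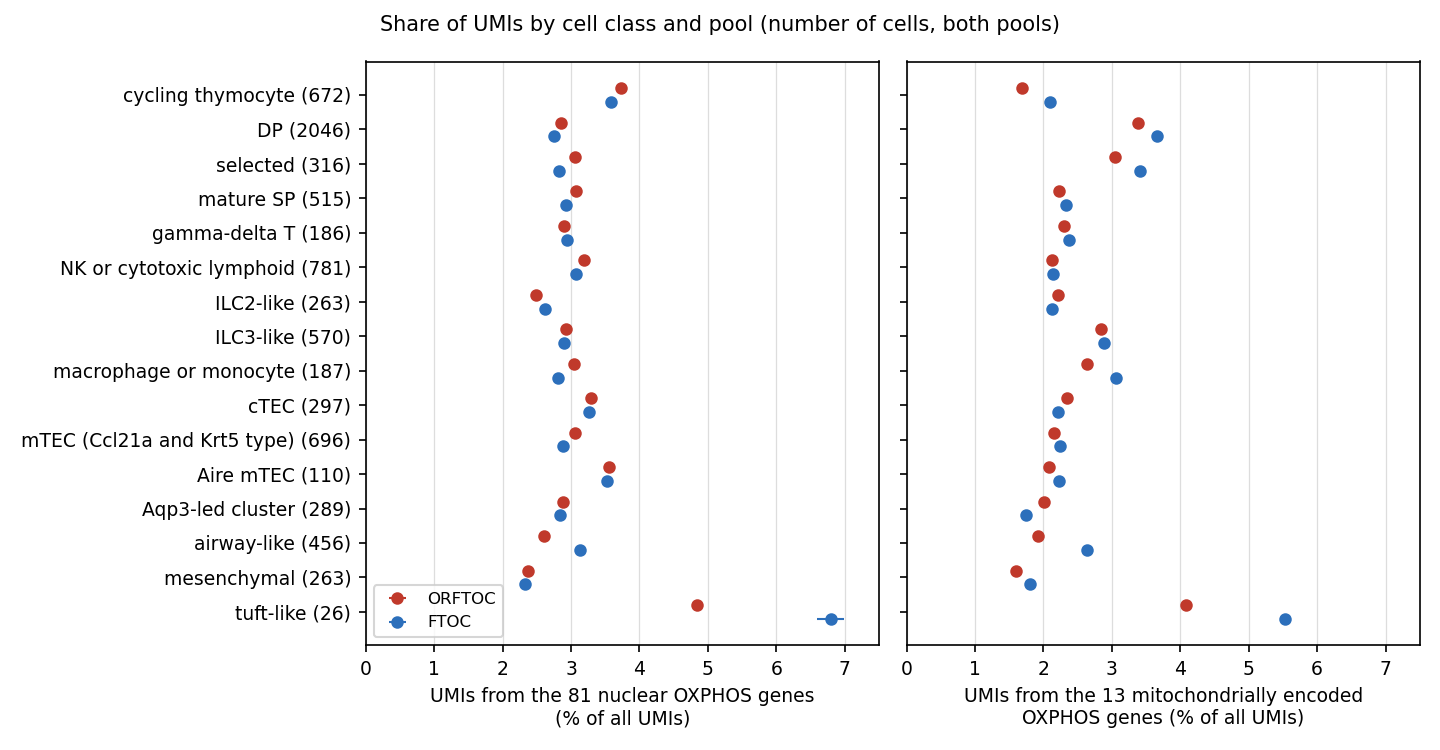
Share of all UMIs (percent, x axes) from the 81 nuclear OXPHOS genes (left) and from the 13 mitochondrially encoded OXPHOS genes (right) for each cell class (y axis), with 1 point per pool and 95% counting intervals in the left panel. Cycling thymocytes have larger shares than DP cells in the left panel (3.72% and 3.58% against 2.85% and 2.76%) and smaller ones in the right panel, and the tuft-like cells lie farthest right in both panels.

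The 13 mitochondrially encoded subunits did not follow the nuclear ones across thymocyte stages. Their share of UMIs was 1.85% for cycling thymocytes, 3.59% for DP, 3.27% for selected and 2.27% for mature SP cells. For each nuclear OXPHOS UMI there were thus 0.503 mitochondrially encoded UMIs in cycling cells, while DP cells had 1.29, selected cells 1.12 and mature SP cells 0.750. The classes were also separated by RNA content (median 8747 UMIs in a cycling cell, 1605 in a DP cell), and the part of depth in this ratio was not tested.

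The first comparison asked how the genes differ between proliferating thymocytes and the resting DP cells that follow them. A gene was counted as past the fold when its CPM differed at least 1.5-fold. It needed 10 UMIs over both groups for a ratio, which left 74 of the 81. In cycling thymocytes 25 of these 74 genes were higher and 1 was lower than in DP cells, while 16.5% of all 6420 genes tested were higher and 43.4% were lower. The median log2 ratio was 0.41 for the OXPHOS genes and −0.44 for all genes, so relative to the typical gene the OXPHOS genes lay 0.85 higher on the log2 scale. Divided by the median ratio of all genes, 56 were higher and 0 lower. The share of all genes past the fold after this division was not computed, here or in the later comparisons. The shares of all genes in each comparison were not matched for level, so they are not a like-for-like reference. Free RNA was estimated at 2.95% of UMIs in cycling cells and 11.6% in DP cells, and with it subtracted 23 genes were higher and 3 lower. The median was 0.31 for complex I, 0.30 for complex III, 0.58 for complex IV and 0.61 for complex V, with 9 of 38, 2 of 8, 5 of 11 and 9 of 17 genes past the fold upwards.

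Complex V supplied 2 of the 5 largest ratios. Atp5g2 is 1 of 3 genes for the same mature c subunit of the membrane rotor of ATP synthase. It stood at 1049 CPM in cycling thymocytes of the ORFTOC pool and 944 in those of the FTOC pool, against 440 and 458 in DP cells. The levels of the 2 classes did not overlap, and the log2 ratio over both pools was 1.16 (1.08 to 1.23). Atp5g1, the second c subunit gene, was at 513 and 397 CPM in cycling cells and at 214 and 227 in DP cells, a log2 ratio of 1.07 (0.96 to 1.19). The third, Atp5g3, had a log2 ratio of 0.96. Of the catalytic head of ATP synthase, Atp5b (β subunit) had a log2 ratio of 0.72 and Atp5a1 (α subunit) one of 0.31, which did not pass the fold.

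In complex IV, Cox5a, a structural subunit next to the catalytic core, was at 798 and 660 CPM in cycling cells and at 365 and 329 in DP cells, a log2 ratio of 1.14 (1.05 to 1.23). Cox8a followed with 1.03, whereas Cox4i1, the largest nuclear subunit, had −0.03 (−0.09 to 0.02). In complex I the largest ratios were those of Ndufa12 (1.13, 0.98 to 1.28) and of Ndufab1 (1.09, 0.97 to 1.22), the mitochondrial acyl carrier protein. The core subunits of complex I differed among themselves, with Ndufv1 at 0.71 and Ndufs1 at −0.15 (−0.42 to 0.14). In complex III, Uqcrq had the largest ratio (0.79), while Uqcrc1 (core protein) had 0.23 and the Rieske iron-sulfur protein gene Uqcrfs1 had 0.25.

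Cox7a2l, counted with complex IV by its symbol, was the single gene past the fold downwards, and was not past it after division by the median ratio. It was at 270 and 299 CPM in cycling cells, 577 and 544 in DP cells, 484 and 564 in the selected class, and 419 and 451 in the mature SP class. Its log2 ratio of cycling over DP cells was −0.98 (−1.07 to −0.89). The next lowest were Ndufs4 (−0.57), which encodes an accessory subunit of complex I, the complex III hinge protein gene Uqcrh (−0.54) and Ndufa6 (−0.43).

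**Figure D2:**
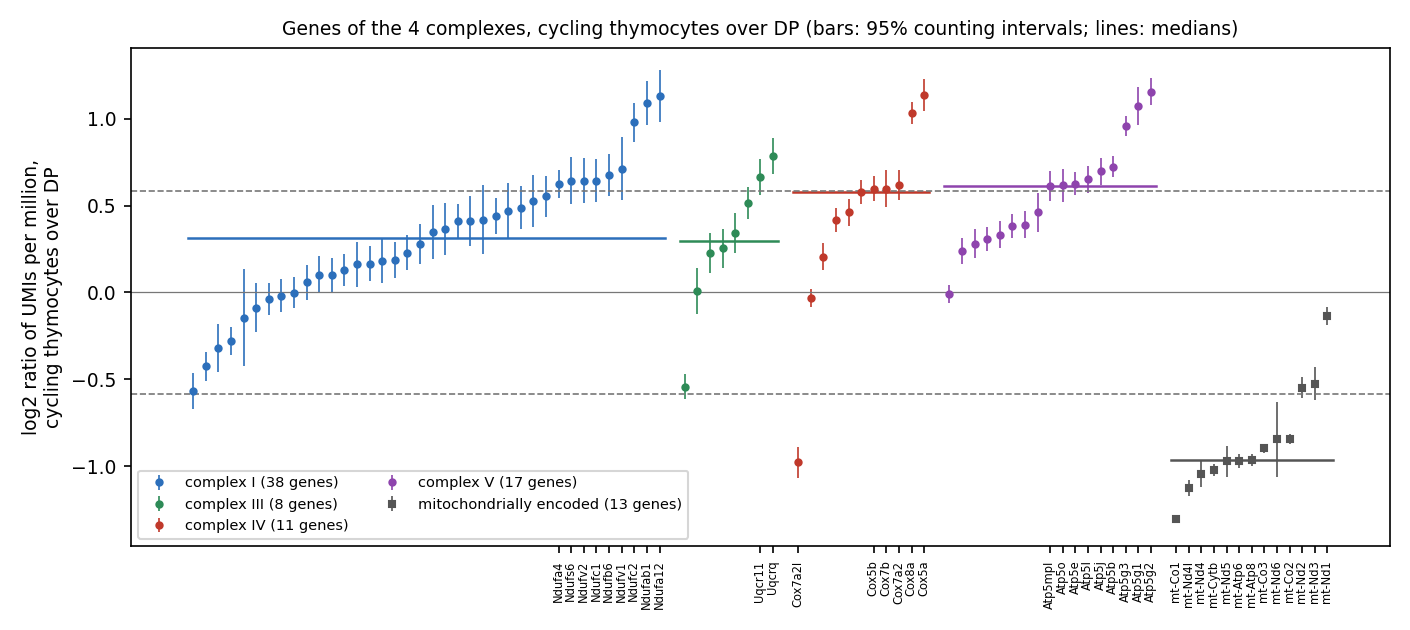
Log2 ratio of CPM in cycling thymocytes over DP cells (y axis) for each nuclear OXPHOS gene with a ratio, grouped by complex, and for the 13 mitochondrially encoded OXPHOS genes (squares); error bars are 95% counting intervals, horizontal lines medians and dashed lines 1.5-fold, and the x axis names the nuclear genes past 1.5-fold and the mitochondrially encoded genes. Complex V has a median of 0.61 with Atp5g2 at the top, Cox7a2l is the lowest nuclear gene at −0.98, and the mitochondrially encoded genes all lie below 0.

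Around the nuclear subunits, 10 of 13 mitochondrially encoded genes were lower in cycling cells and 0 were higher, with a median of −0.97 and mt-Co1 lowest at −1.30. Cycs (cytochrome c, the carrier between complexes III and IV) had a log2 ratio of 1.21. None of the 4 complex II genes passed the fold (median 0.36). Of 25 assembly factors with a ratio, 4 were higher and 5 lower. Of 17 genes of the tricarboxylic acid cycle 4 were higher and 1 lower, and of 14 genes of glycolysis 9 were higher and 2 lower (median 0.78). Of the regulators of mitochondrial genes, Myc had a log2 ratio of 2.93, Tfam 0.55, Nrf1 0.38 and Gabpa −0.24, while Ppargc1a (2.48 CPM over all cells), Ppargc1b (10.2) and Esrra (15.0) were under the level filter. Of 79 ribosomal protein genes 38 were higher and 0 lower.

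The next comparisons followed selection and maturation, in which few of the genes passed the fold. In selected cells 2 of 74 were higher than in DP cells and 0 lower, and the medians were 0.04 for the OXPHOS genes and −0.04 for all genes. Of all genes, not matched for level, 10.9% were higher and 12.3% lower. The 2 higher OXPHOS genes were Atp5g1, at 463 and 328 CPM in the 2 pools against 214 and 227 in DP cells (0.77, 0.57 to 0.97), and Uqcrq, at 608 and 339 against 274 and 283 (0.66, 0.48 to 0.85). Uqcrq was thus closer to DP cells in the FTOC pool than in the ORFTOC pool.

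In mature SP cells 4 of 74 genes were higher and 3 lower than in DP cells, against 13.4% and 47.6% of all genes. The medians were 0.03 for the OXPHOS genes and −0.53 for all genes. Divided by the latter, 36 were higher and 0 lower, with no matching share of all genes computed. The 4 higher genes were Atp5e (ε subunit of ATP synthase, 1.03), Atp5g1 (1.03), Atp5g2 (0.96) and Cox8a (0.78). Atp5e was at 1363 and 1276 CPM in mature SP cells and at 644 and 652 in DP cells. The 3 lower genes were Ndufs4 (−1.01), Ndufs5 (−0.84) and Atp5h (−0.70), which encodes a stalk subunit of ATP synthase. Ndufs4 was at 177 and 171 CPM in mature SP cells and at 374 and 346 in DP cells, without overlap of the classes. Of the 13 mitochondrially encoded genes 8 were lower and 0 higher (median −0.61), while 72 of 79 ribosomal protein genes were higher.

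In epithelial cells as a whole 5 of 75 genes were higher and 2 lower than in mature SP cells, against 36.6% and 18.6% of all genes. The median was 0.03, against 0.22 for all genes. Divided by the latter, 3 were higher and 6 lower, with no matching share of all genes computed. The 5 include Cox8b, which passed the level filter only through epithelial cells and so had to be higher. The other higher genes were Ndufa11 (1.46, 1.37 to 1.55), Uqcrb (0.83), Uqcr11 (0.72) and Ndufc1 (0.64). Uqcrb, a subunit of complex III near the ubiquinone site, was at 393 and 377 CPM in the epithelial cells of the 2 pools and at 221 and 213 in mature SP cells. The lower genes were Ndufv3 (−0.81) and Cox7a2l (−0.64). Of 8 stress and dissociation genes 8 were higher in epithelial cells, with a median log2 ratio of 5.34, and their part in these ratios was not tested.

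Innate lymphoid cells (NK or cytotoxic, ILC2-like and ILC3-like cells) had levels close to those of mature SP cells. Of 74 genes 0 were higher and 1 lower, against 17.7% and 4.39% of all genes. The lower gene was Cox7a2l (−0.61, −0.70 to −0.53), and the others lay between −0.33 and 0.36. Macrophages had 4 genes higher and 5 lower, while 27.0% of all genes lay in each direction. Cox5a was at 966 and 1001 CPM in macrophages and at 521 and 459 in mature SP cells (0.97, 0.88 to 1.05). Ndufb8 (0.84), Uqcrb (0.82) and Uqcr11 (0.62) were also higher. Uqcrh (−0.82), Cox7a2l (−0.79), Ndufa4 (−0.78), the X-linked gene Ndufb11 (−0.71) and Ndufs4 (−0.59) were lower. The other X-linked genes, Ndufa1 and Cox7b, had log2 ratios of −0.04 and 0.07. In innate lymphoid cells and in macrophages the stress and dissociation genes were also higher than in mature SP cells, 7 of 7 and 8 of 8, and their part in these ratios was not tested.

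**Figure D3:**
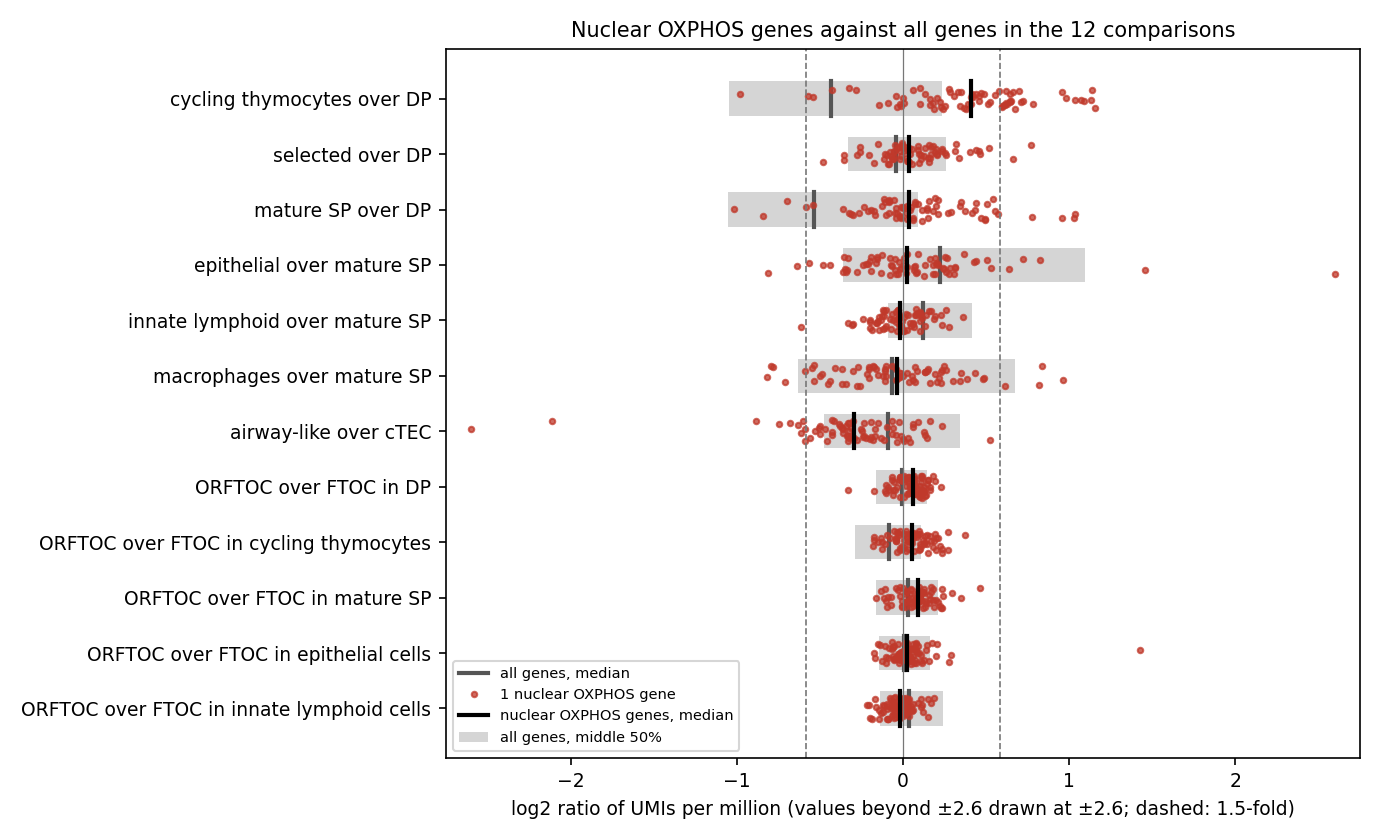
Log2 ratios of CPM (x axis) of the nuclear OXPHOS genes (red points, 1 per gene; black line, median) in the 12 comparisons, over the middle 50% of all genes tested (grey bar) and their median (dark grey line); dashed lines mark 1.5-fold. The OXPHOS median lies right of that of all genes by 0.85 in cycling over DP cells, and all but Cox8b lie within 1.5-fold in the 5 comparisons of ORFTOC over FTOC.

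Within the epithelium, airway-like cells were compared with cTECs. In airway-like cells, which express Bpifa1 and Wfdc2, 0 of 75 genes were higher and 10 lower than in cTECs, against 17.2% and 19.9% of all genes. The share of OXPHOS genes that were lower was thus not above that of all genes. The 10 include Cox8b, which passed the level filter through the epithelial cells where it is high, chiefly cTECs, and so had to be lower. The summed share was 2.61% in airway-like cells against 3.30% in cTECs in the ORFTOC pool, but 3.13% against 3.26% in the FTOC pool, so the difference rested mostly on the ORFTOC pool. The median was −0.29 for the OXPHOS genes and −0.09 for all genes. Divided by the latter, 1 was higher and 5 lower, with no matching share of all genes computed. Of the 10 lower genes 5 belonged to complex I and 4 to complex V (Atp5g1, Atp5f1, Atp5g3 and Atp5a1, −0.63 to −0.59). The mitochondrially encoded genes had a median of −0.34, with 1 of 13 lower. Airway-like cells also held 9325 CPM of stress and dissociation genes against 5465 in cTECs, and the part of this was not tested.

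Ndufa11, which encodes a membrane arm subunit of complex I, differed widely within the epithelium. It was at 1430 CPM in cTECs of the ORFTOC pool and 1479 in those of the FTOC pool, at 778 and 796 in mTECs of the Ccl21a and Krt5 type, and at 328 and 345 in airway-like cells. DP cells had 331 and 318, and mature SP cells 281 and 284. The levels of these epithelial classes did not overlap. The log2 ratio of airway-like cells over cTECs was −2.11 (−2.19 to −2.04). A cTEC held a median of 21 Ndufa11 UMIs and an airway-like cell 3, at median depths of 14825 and 11390 UMIs, and 99.7% of cTECs held at least 1. Among further complex I genes, Ndufs4 (−0.88), Ndufb10 (−0.75) and Ndufv2 (−0.68) followed.

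**Figure D4:**
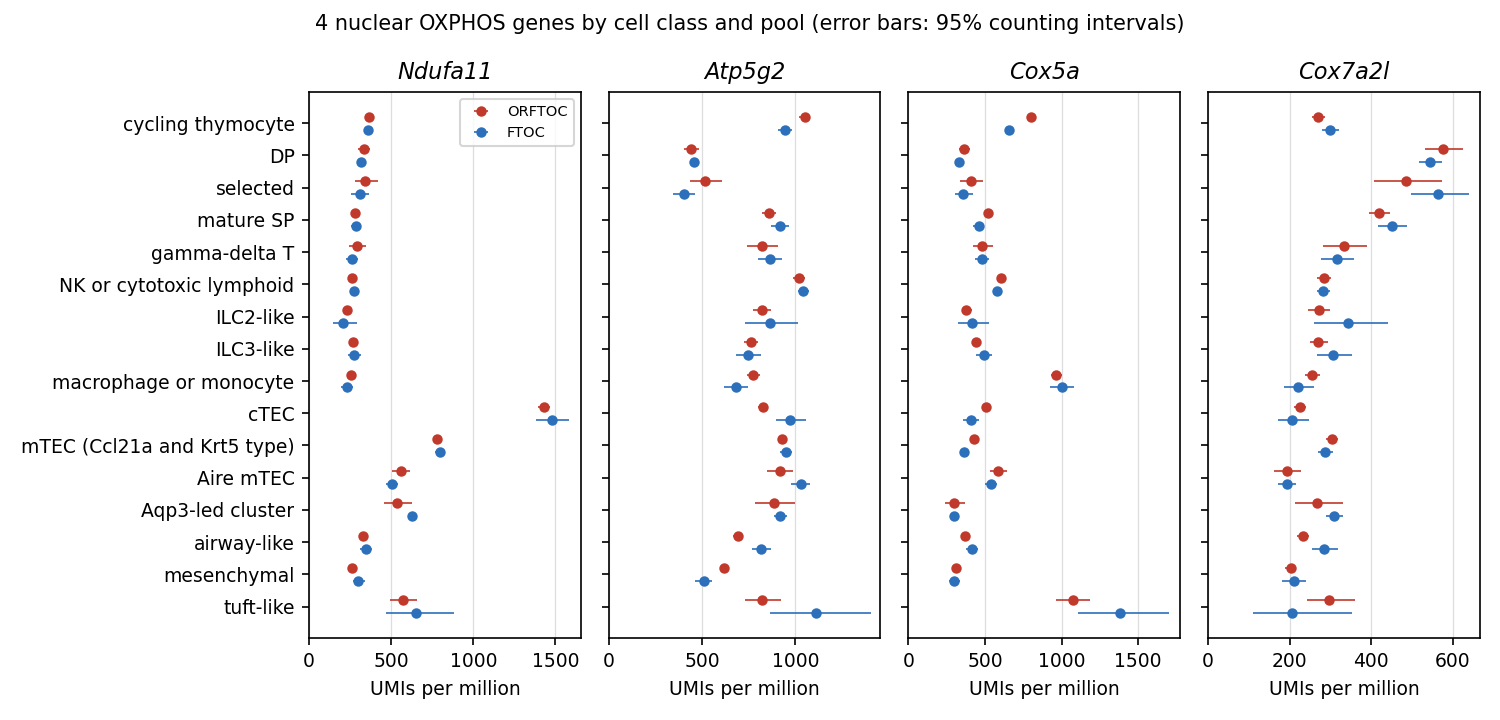
CPM (x axes, from 0) of Ndufa11, Atp5g2, Cox5a and Cox7a2l in each cell class (y axis) and pool, with 95% counting intervals. Ndufa11 stands at 1430 and 1479 in cTECs, Atp5g2 lies between 401 and 516 in DP and selected cells, Cox5a is high in cycling, macrophage and tuft-like cells, and Cox7a2l is highest in DP and selected cells.

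The minor isoforms of complex IV differed in where their UMIs were found. Cox8b, known as the isoform of subunit 8 of heart and skeletal muscle, passed the level filter only through epithelial cells, which held 1611 of its 1642 UMIs. In cTECs it gave 13.6% (12.9 to 14.4) of the UMIs of Cox8a, Cox8b and Cox8c, and in mTECs of the Ccl21a and Krt5 type 2.15%. In the cTECs of the ORFTOC pool it was at 261 CPM and in those of the FTOC pool at 91.8, the latter from 52 UMIs in 36 cells. At least 1 Cox8b UMI was found in 110 of 297 cTECs (37.0%), in 43 of 696 mTECs (6.18%), in 5 of 456 airway-like cells (1.10%), in 4 of 2046 DP cells (0.196%) and in 0 of 515 mature SP cells (exact upper limit 0.714%). Median depths were 14825 UMIs in cTECs, 12823 in mTECs, 1605 in DP cells and 6427 in the mature SP class. The 10 cTECs with the most Cox8b held 41.8% of its cTEC UMIs, and 1 cell held 91. With mature SP cells taken at a floor of 3 UMIs over the group, Cox8b was 67.9-fold higher in epithelial cells. That value is set by the floor and is not a lower limit.

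Promoters of 5 genes are printed to show the bases before the start of genes whose levels differed between classes: Atp5g2, the gene with the highest ratio in cycling cells, Ndufa11, Cox7a2l, which was lower in cycling cells, and the isoform pair Cox8a and Cox8b. They are the 150 bases before the start on the gene's strand, 5′ to 3′, from RefSeq on build GRCm38.p6 (Atp5g2, chr15:102671048-102671197, minus strand; Ndufa11, chr17:56717612-56717761, plus; Cox7a2l, chr17:83514334-83514483, minus; Cox8a, chr19:7217617-7217766, minus; Cox8b, chr7:140900447-140900596, minus). Capitals mark a match to the NRF1 motif (GCGC and TGCGC with 1 base between them) in Atp5g2 and Ndufa11 and to CAGCTG (an E-box) in Cox8b. Each match in capitals reads the same on both strands, so its matches on the 2 strands overlap, and no match overlaps another motif.
Atp5g2: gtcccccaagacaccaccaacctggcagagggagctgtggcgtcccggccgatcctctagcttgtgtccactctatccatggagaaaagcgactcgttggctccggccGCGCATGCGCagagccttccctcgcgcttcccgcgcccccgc
Ndufa11: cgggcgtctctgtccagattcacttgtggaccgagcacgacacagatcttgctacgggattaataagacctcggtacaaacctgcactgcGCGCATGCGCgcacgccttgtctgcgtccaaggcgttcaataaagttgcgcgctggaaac
Cox7a2l: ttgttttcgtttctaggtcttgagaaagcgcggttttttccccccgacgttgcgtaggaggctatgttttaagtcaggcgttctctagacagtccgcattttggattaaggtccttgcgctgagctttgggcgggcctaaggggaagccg
Cox8a: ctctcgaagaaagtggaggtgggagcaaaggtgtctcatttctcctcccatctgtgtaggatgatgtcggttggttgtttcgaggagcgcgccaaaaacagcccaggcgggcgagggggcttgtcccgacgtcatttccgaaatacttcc
Cox8b: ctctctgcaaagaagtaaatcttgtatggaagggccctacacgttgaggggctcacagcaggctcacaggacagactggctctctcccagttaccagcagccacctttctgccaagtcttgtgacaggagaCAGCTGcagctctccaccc

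A RefSeq promoter entry (250 bases before and 50 after the start) was matched by symbol for 65 of the 81 genes. The NRF1 motif was found on either strand in 15 of these 65 genes (23.1%), against 5.19% of all 27025 genes with an entry. CCGGAAG, the core bound by ETS factors such as GABP, was in 23.1% against 9.93%, and AAGATGGC, the YY1 motif, was in 13.8% against 3.19%. CCAAT was in 43.1% against 41.1%, TATAAA in 12.3% against 15.7%, and CAGCTG in 9.23% against 18.3%. The genes with an entry were not matched to the OXPHOS genes for expression or base content, so their shares are not a like-for-like reference. A match is a description of the letters and not a bound site.

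Cox6a2, the heart and skeletal muscle isoform of subunit 6a, gave 4.24% (3.72 to 4.81) of the UMIs of its pair with Cox6a1 in cycling thymocytes, 4.39% in the ORFTOC pool and 4.01% in the FTOC pool. Its share was 1.65% for DP and 2.44% for mature SP thymocytes. These values rest on 32 UMIs in 18 of 2046 DP cells and 45 UMIs in 13 of 515 mature SP cells. The 10 cycling cells with the most Cox6a2 held 46.8% of its 231 UMIs in that class, a spread that the interval does not cover. Cox6a2 UMIs were found in 81 of 672 cycling cells (12.1%), in 29 of 263 mesenchymal cells (11.0%) and in 7 of 2201 epithelial cells. These shares of cells were not matched for depth. Cox4i2, the isoform of subunit 4 known from lung and low oxygen, gave 3.22% of the pair with Cox4i1 in mesenchymal cells. The share was 1.70% in the ORFTOC pool and 10.4% in the FTOC pool. Over both pools this rests on 166 Cox4i2 UMIs in 57 of 263 mesenchymal cells, and the 10 highest cells held 42.8%. Embryonic fibroblasts were added to the ORFTOC pool only, and their part in this difference was not tested. In an unnamed epithelial cluster of 289 cells led by Igfbp2, Aqp3 and Ndrg1, 262 of them from the FTOC pool, Cox4i2 gave 3.70%. In the same 2 classes Ndufa4l2, a paralog of Ndufa4 left out by the rule and known to be induced at low oxygen, gave 46.7% of the UMIs of both paralogs in the Aqp3-led cluster and 37.8% in mesenchymal cells, against 0.0286% in cTECs. The 3 c subunit genes were all used in every class. Atp5g3 gave 57.8% of their UMIs in selected cells and 41.6% in ILC2-like cells, and Atp5g2 gave 22.8% and 41.4%.

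**Figure D5:**
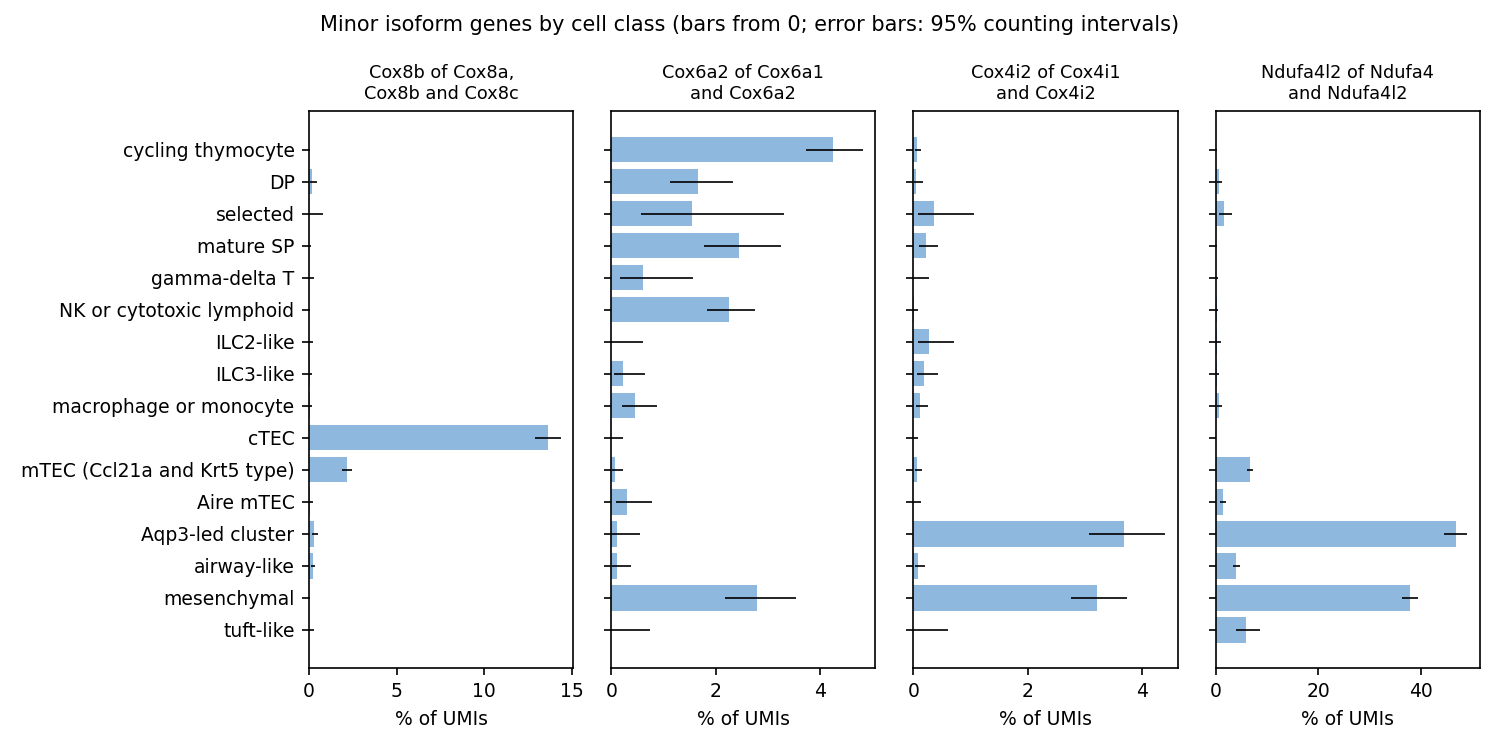
Share (percent, x axes from 0) of the UMIs of a pair or trio of isoform genes taken by the minor one, for each cell class (y axis), with 95% counting intervals. Cox8b reaches 13.6% in cTECs, Cox6a2 4.24% in cycling thymocytes, Cox4i2 3.70% in the Aqp3-led cluster, and Ndufa4l2 46.7% in the same cluster.

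The last question was whether the genes differed between the organoid reaggregates and the intact lobes within a class or a group of classes. Few differed by 1.5-fold or more, although smaller differences exceeded counting error in several classes. The interval of the ratio excluded 1 for 4 of 74 genes in DP cells, 29 in cycling thymocytes and 19 in mature SP cells. It did so for 37 of 75 in epithelial cells and 25 of 74 in innate lymphoid cells. Epithelial and innate lymphoid cells each merge several classes, and the mix of classes differed between the pools. The part of this mix in these counts was not tested. The shares of all genes that follow were not matched for level, so they are not a like-for-like reference. In DP cells 0 of 74 genes passed the fold, against 7.18% of all genes, and the log2 ratios of ORFTOC over FTOC lay between −0.33 and 0.23. In cycling thymocytes 0 of 74 passed, against 10.1%, with Atp5g1 highest (0.37, 0.27 to 0.48). In mature SP cells 0 of 74 passed, against 8.66%, and in innate lymphoid cells 0 of 74, against 12.1%. In epithelial cells 1 of 75 passed, against 10.1%. That gene was Cox8b (1.43, 1.26 to 1.61), at 73.5 CPM in the ORFTOC pool and 27.3 in the FTOC pool. At 22.9 CPM over all cells, it passed the level filter only through epithelial cells, chiefly cTECs. Its ratio is thus not independent of the filter. The 10 epithelial cells with the most Cox8b held 30.8% of its epithelial UMIs, a spread that the interval does not cover. The ORFTOC pool held 261 of the 297 cTECs. Within mTECs of the Ccl21a and Krt5 type, Cox8b went the other way, at 17.7 CPM in the ORFTOC pool and 43.9 in the FTOC pool. The share of these mTECs with a Cox8b UMI was similar, 26 of 417 (6.24%) and 17 of 279 (6.09%). The 10 mTECs with the most Cox8b held 73.2% of its UMIs in this class, and 1 cell of the FTOC pool held 47. Of the summed shares, those of macrophages and of selected cells were each 1.08-fold higher in the ORFTOC pool. Airway-like cells differed more, with 2.61% in the ORFTOC pool and 3.13% in the FTOC pool. Tuft-like cells, only 26 over both pools, differed most among the named classes, with 4.84% and 6.79%.

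In the epithelial cells 6 of 14 genes of glycolysis were lower in the ORFTOC pool and 0 higher (median −0.51), while the OXPHOS median was 0.02 and 0 of 13 mitochondrially encoded genes passed the fold. The Aqp3-led cluster, almost all from the FTOC pool, was part of these cells. ILC2-like cells, highest in stress and dissociation genes, gave 34406 of the 210876 OXPHOS UMIs of innate lymphoid cells in the ORFTOC pool. They gave 4525 of 158201 in the FTOC pool, and the part of this mix was not tested. In innate lymphoid cells 6 of 7 stress and dissociation genes were higher in the ORFTOC pool (median 1.89), and the OXPHOS median was −0.02. With 1 sample per pool, a difference of this size between cultures and one between culture types cannot be told apart.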

How the data were processed

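The authors aligned the reads to build mm10 with Cell Ranger 6.1.2, per the submitters' processing notes, which also name Seurat 4.2.0. The header of the matrix names another major version of Cell Ranger, and whether the counts depend on it was not tested. The deposited matrix held unfiltered UMI counts for 705161 barcodes, with the hashtag counts as its last lines. The T cell receptor library was not used here.

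Barcodes with at least 600 genes and 0.4 to 10% of UMIs from mitochondrial genes were kept (10245). HTODemux (Seurat 5.3.0, quantile 0.99) called pools from the hashtags and gave 8983 single cells, 590 doublets and 672 negatives. Within pools, the 591 cells with the highest share of known doublets among their nearest neighbours were also removed. SCTransform from sctransform 0.4.2 normalised the counts, regressing on S and G2M scores, and cells were clustered on 18 principal components at resolution 0.4 (all and epithelial cells) or 1 (immune cells). OXPHOS and mitochondrially encoded genes were left out of the clustering genes. Each cluster was named by the marker list with the best average log2 fold over clusters of other classes. It stayed unnamed without a marker of that class among its 10 leading genes, or with a margin under 0.25. These limits were set after the leading genes had been seen.

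UMIs were summed per class and pool and scaled to CPM. Ratios used a floor of 3 UMIs and needed 10 UMIs over both groups. This last rule was set after the ratios of genes with few UMIs had been seen. Intervals (95%) were Clopper-Pearson for shares, exact Poisson for levels and exact conditional binomial for ratios. UMI totals were 3644805 in DP cells and 7245331 in cycling thymocytes. Since members are compared with each class's total, a ratio depends on all other genes. Genes were named as the 5 highest and 5 lowest in each comparison, with isoforms, catalytic and core subunits, X-linked genes, mitochondrially encoded genes and regulators. Others were chosen after their values were seen, and some results are not reported here. The members, lists and comparisons were chosen with earlier results of these data known. The ratio step was tested on simulated data. Sums and intervals were computed in Python 3.11.15 (pandas 2.3.3, scipy 1.17.1, numpy 2.4.6), figures with matplotlib 3.10.9 and clusters in R 4.3.3. Alternatives are given in the closing section.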

Additional observations from a re-analysis of the deposited data

How the results depend on the processing

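Of 159 recomputed counts of genes past 1.5-fold, 132 were within 1.5 times the count given above and 27 were not. No paired analysis was possible because each pool is 1 sample and no test was made. The 26 genes of cycling over DP cells became 56 when divided by the median ratio of all genes, and 24 without the clusters low in ribosomal transcripts, an alternative chosen after seeing the data. The 7 genes of mature SP over DP cells became 36 with the former and 11 without mitochondrial limits. The 2 genes of selected over DP cells became 7 with hashtags assigned by ratio, 4 with doublets kept, 5 with at least 1000 genes, 4 with 30 principal components and 1 with equal weight of cells. The 7 genes of epithelial over mature SP cells became 11 with hashtags by ratio, 15 with log-normalised clustering and 11 without the level filter. The 1 gene of innate lymphoid over mature SP cells became 0 without mitochondrial limits, 10 with log-normalised clustering, 4 without the level filter and, added after seeing the data, 2 with ILC2-like and ILC3-like cells only. The 9 genes of macrophages over mature SP cells became 16 with log-normalised clustering. The 10 genes of airway-like cells over cTECs became 5 with doublets kept and 6 when divided by the median ratio. Of the pool comparisons, that of mature SP cells went from 0 to 1 with hashtags by ratio, doublets kept, log-normalised clustering or no level filter. Without that filter DP cells went to 2, cycling thymocytes to 1, innate lymphoid cells to 3 and epithelial cells from 1 to 3, while a filter of 50 CPM took epithelial cells to 0. The cause of these shifts was not tested. Subtracting free RNA left each count within 1.5 times. Leaving out the Aqp3-led cluster, added after seeing the data, left the epithelial pool count at 1. With 410752 UMIs in tuft-like cells and 722274 in selected cells, depth limits the values of single genes there.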

Other observations

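Acad9, which encodes an assembly factor of complex I, was the assembly factor with the largest difference between the epithelial classes. It was at 106 CPM in cTECs and 17.3 in airway-like cells, a log2 ratio of −2.61 (−2.95 to −2.29), and Ndufa11, the complex I subunit gene with the largest difference in the same comparison, had −2.11. Tfam, which packages and transcribes mitochondrial DNA, was at 90.2 CPM in cTECs and 33.9 in airway-like cells (−1.41), and Aldoc was the glycolysis gene with the largest ratio (4.33), at 205 and 10.2 CPM in airway-like cells and cTECs. These genes were singled out after their values were seen.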
